A study of Mus musculus with 9 samples.

Results

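The 58 genes described here encode the machinery of mitosis. They comprise 6 genes of the cyclin B and CDK1 switch, 4 mitotic kinases, 5 genes of the spindle checkpoint and the anaphase-promoting complex, 3 subunits of the chromosomal passenger complex, 7 centromere and kinetochore genes, 11 kinesins, 11 other spindle microtubule proteins, 8 genes of condensin and chromosome structure, and 3 cytokinesis genes. The genes were selected on their symbols and mitotic roles with earlier results of these same counts in view, in which genes of mitosis had been higher in prednisolone than in vehicle libraries. The fold changes and calls below therefore describe the chosen genes and are not independent evidence of a direction. All 58 were among the 50559 genes listed, and all 58 were among the 16618 genes left by a filter on low counts.

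Transcripts of most of these genes are scarce in resting cells, build up in G2, and are degraded or diluted after division. The level of such transcripts in a bulk sample follows how many cells are in or near mitosis and how much of each transcript those cells hold. Cyclin B with CDK1 starts mitosis, Aurora and Polo-like kinases build the spindle, kinesins and microtubule-bundling proteins shape it, and the kinetochore ties chromosomes to it. The checkpoint holds back the anaphase-promoting complex until all chromosomes are attached, after which RhoA and its regulators close the cleavage furrow. In skeletal muscle, macrophages come both from blood monocytes and from division within the tissue.

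All mice were of the mdx strain, which lacks dystrophin and models Duchenne muscular dystrophy, and were 4.5 weeks old. They received vehicle, the mineralocorticoid receptor antagonist spironolactone, or the glucocorticoid prednisolone for 7 days. CD45+CD11b+ cells, that is myeloid leukocytes, were sorted from quadriceps, with 3 libraries per group and cells of 3 mice pooled in each library, so that a replicate is a pool rather than an animal. The sort had no step to leave out dead cells, and no healthy strain was sequenced. A different number of dividing cells and a different amount of transcript per dividing cell, more or less, cannot be told apart in such pools.

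Each library held 31469815 to 32943512 counts on genes, and a member had between 34 and 10724 counts in a library, with 5 members under 100 counts in at least 1 library. The labelled cell type was checked against 12 macrophage markers, which summed to 20781 to 23425 CPM (counts scaled to library size by TMM, which compares libraries for a gene but not genes with each other) in the 9 libraries. Vehicle replicate 3 and spironolactone replicate 3 stood apart, since 14 neutrophil markers summed to 5042 and 3746 CPM there and to 808 to 1645 CPM in the other 7 libraries.

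Across the 58 genes, the mean log2 CPM was 4.13, 3.62, and 3.88 in vehicle replicates 1 to 3, 3.95, 3.91, and 4.13 in spironolactone replicates, and 4.38, 4.62, and 4.55 in prednisolone replicates. All 3 prednisolone libraries lay above the other 6, whereas the spironolactone libraries lay within the vehicle range. The group means were 3.87 ± 0.25 (SD, n = 3) in vehicle, 4.0 ± 0.12 in spironolactone, and 4.52 ± 0.12 in prednisolone. The summed level of the 58 genes was 1254 ± 243, 1338 ± 86.8, and 1903 ± 139 CPM in the same order.

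**Figure D1:**
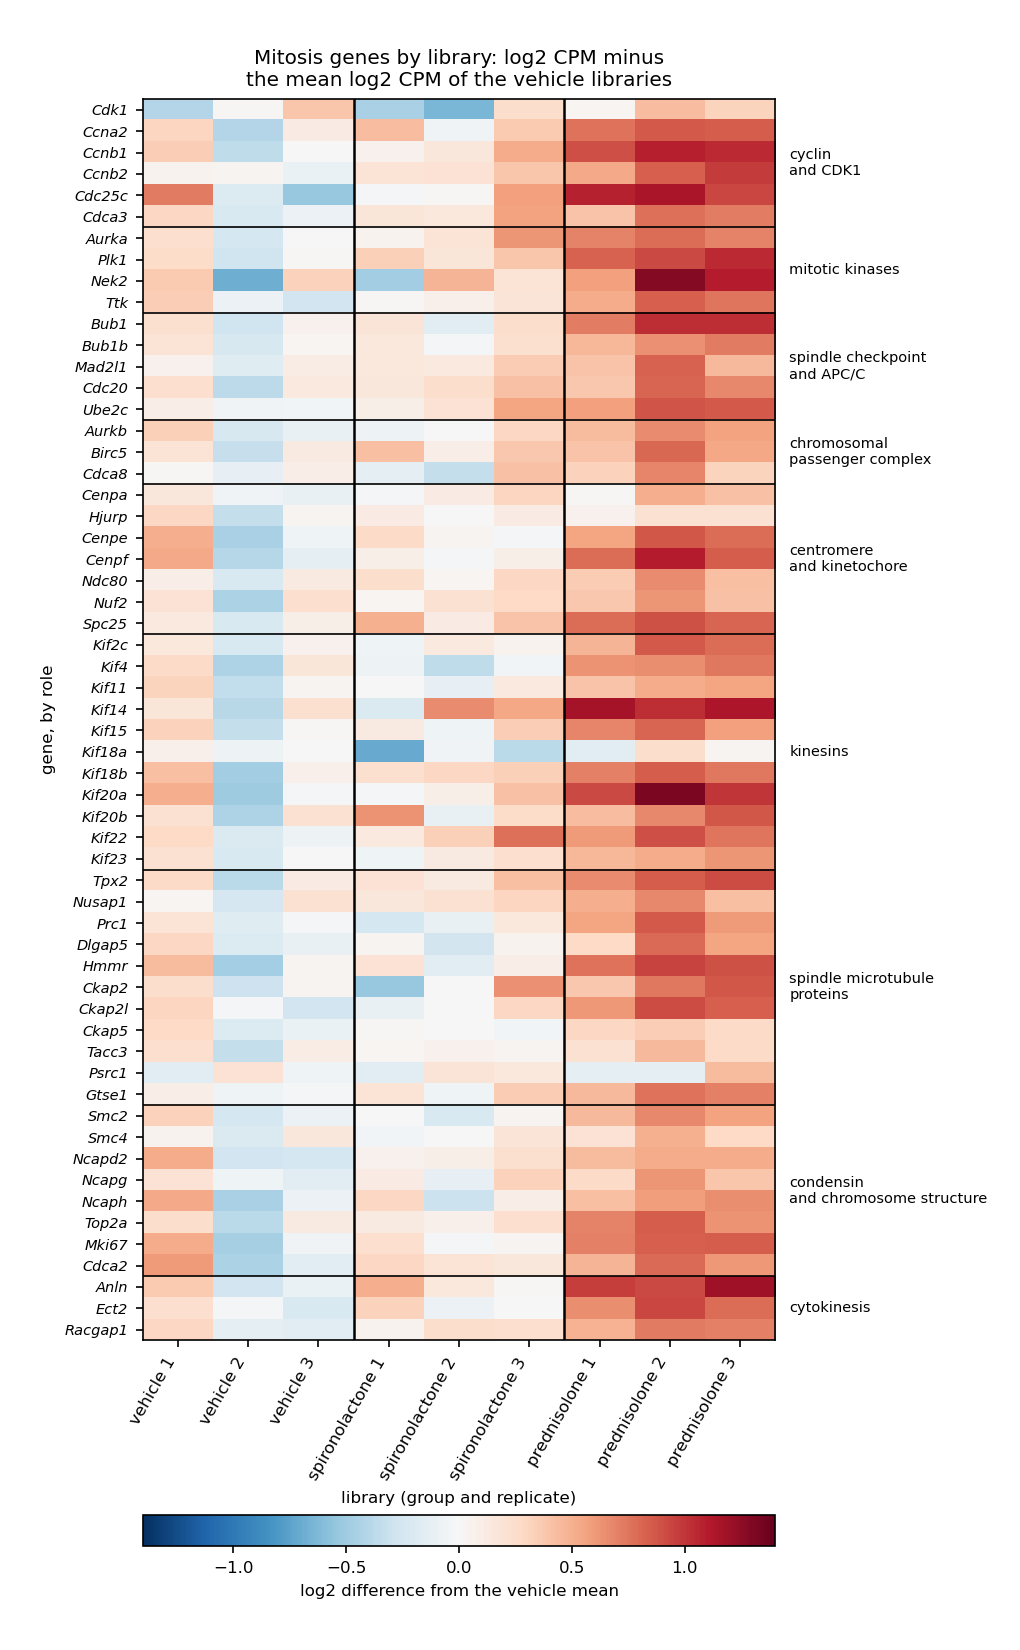
Level of each of the 58 genes (rows, grouped by role) in each of the 9 libraries (columns), as the difference in log2 CPM from the mean of the 3 vehicle libraries, with red above and blue below that mean. The 3 prednisolone columns are red in nearly every row, vehicle replicate 2 is the bluest column, and the rows of Kif18a, Psrc1, Hjurp, and Cdk1 stay pale or mixed.

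Against vehicle, all 58 genes had a fitted fold change above 1 with prednisolone, where 47.8% of all genes tested did. The median log2 fold change was 0.64, or 1.56-fold, next to −0.014 over all genes tested, and it ran from 0.053 for Kif18a to 1.09 for Kif14. Calls used the quasi-likelihood test of edgeR with Benjamini-Hochberg adjustment over all genes. At an adjusted P under 0.05, 26 of the 58 were called, all higher, where 1.0% of all genes tested were called higher. At an unadjusted P under 0.05, 54 members were higher, as were 1185 of the 16618 genes tested. For 47 members every prednisolone library exceeded every vehicle library, as for 10.4% of all genes, and for 39 it also exceeded every spironolactone library, as for 6.48% of all genes. Because the members were chosen with this comparison known, nothing is read from these shares. Beside this, summed lymphocyte markers were 18.9 to 28.8 CPM in prednisolone and 30 to 32.9 in vehicle libraries, 10 F4/80 high macrophage markers 1793 to 1983 and 1474 to 1776, 8 erythroid markers 37.3 to 79.7 and 70.3 to 135, and neutrophil markers 837 to 1071 and 808 to 5042. The first 2 of these sums did not overlap between the groups, but the lymphocyte sums overlapped without Cd4, and the F4/80 high sums overlapped without F13a1 (1126 to 1200 and 1001 to 1338 CPM) or without Lyve1 (1750 to 1958 and 1466 to 1759 CPM). Of the F4/80 high markers, F13a1, Cd163, Lyve1, and Timd4 were higher and Gas6 and Maf lower in every prednisolone than in every vehicle library, with a median log2 fold change of 0.22 over the list. Dendritic cell sums overlapped with every marker kept, but were lower with prednisolone without Cd209a, Flt3, or Zbtb46 and higher without Irf8. Skeletal muscle fiber sums overlapped with every marker kept, but were higher with prednisolone without Pvalb. The part of these cells in the result was not tested.

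The number of calls depended on single libraries. It was 44 without vehicle replicate 1, 8 without vehicle replicate 2, 10 without vehicle replicate 3, 13 without prednisolone replicate 1, 3 without prednisolone replicate 2, and 6 without prednisolone replicate 3. The median change was 0.52 to 0.79 in these fits. Calls over all genes in the same fits are not given here, so the counts are not read as particular to the members. Without the neutrophil-rich replicates, vehicle 3 and spironolactone 3, a setting chosen after seeing the data, 7 members were called and the median stayed at 0.64. Of the 26 genes, 17 were called under every one of 11 other choices of tool, scaling, filter, fit, or block, and Anln, Ccnb2, and Plk1 were also called in all 9 fits that left out 1 library. The rest of the 26 were each called in 1 to 8 of these 9 fits.

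Most members moved together from library to library also within groups. The lowest Pearson r to the mean of the other members, after group means were removed, was −0.24 for Psrc1, 0.14 for Cdk1, and 0.31 for Kif18a. Vehicle replicate 1 was the highest vehicle library for 48 members and vehicle replicate 2 the lowest for 48, and the median log2 ratio of the first to the second was 0.52 over members and −0.0093 over all genes tested. Prednisolone replicate 2 was the highest of all 9 libraries for 43 members, and prednisolone replicate 1 was the lowest of its group for 48. For 49 members all prednisolone libraries exceeded even vehicle replicate 1, and the median log2 ratio of the prednisolone mean to that library was 0.40.

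With spironolactone, 48 members were fitted higher and 10 lower than in vehicle, where 50% of all genes were fitted higher. The median log2 fold change was 0.11, with a range from −0.36 for Kif18a to 0.42 for Kif22. None of the 58 was called by edgeR (0.0181% of all genes were called higher), nor by DESeq2 or limma-voom, and 3 had an unadjusted P under 0.05, namely Ccnb2, Ube2c, and Kif22, next to 5.21% of all genes that were higher at that level. Every spironolactone library exceeded every vehicle library for 2 members, Ccnb2 and Mad2l1, as for 6.99% of all genes. The median turned to −0.013 without vehicle replicate 2 and was 0.24 without vehicle replicate 1, 0.079 without vehicle replicate 3, 0.037 without spironolactone replicate 3, and 0.045 without both neutrophil-rich libraries. Summed dendritic cell, lymphocyte, endothelial, skeletal muscle fiber, and erythroid markers were higher in every spironolactone than in every vehicle library (for dendritic cells not without Flt3 or Irf8), and their part was not tested.

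Compared directly, all 58 members were fitted lower with spironolactone than with prednisolone, where 46.6% of all genes were. The median log2 difference was −0.49, from −0.92 for Kif20a to −0.019 for Psrc1, and was 0.026 over all genes. The test of edgeR called 20 members, all lower (2.79% of all genes were called lower). At an unadjusted P under 0.05, 44 members were lower, as were 1847 of the 16618 genes tested. For 45 members every spironolactone library lay below every prednisolone library (15.2% of all genes). Since the same prednisolone libraries enter both counts, and the vehicle libraries serve both drugs, the comparisons are not independent of each other. Calls numbered 34 without vehicle replicate 1, 9, 3, and 8 without spironolactone replicates 1, 2, and 3, and 7, 2, and 2 without prednisolone replicates 1, 2, and 3. They numbered 8 without both neutrophil-rich libraries, with a median of −0.60. For these fits, too, calls over all genes are not given here. Prc1 was called in every alternative and in every fit that left out 1 library. Of the 11 marker lists, 7 did not overlap between the drugs with every marker kept. Macrophage sums overlapped (20808 to 23425 CPM with spironolactone, 21068 to 22866 with prednisolone). Without Lyz2, the most abundant marker, they were higher with spironolactone (11910 to 13230 and 10390 to 11700). Of the 12 macrophage markers, 2 were called higher and 1 lower with spironolactone, with a median log2 difference of 0.016. The sums for F4/80 high macrophages (1433 to 1698 CPM with spironolactone, 1793 to 1983 with prednisolone) and monocytes (2188 to 2535 and 2549 to 3313) were lower with spironolactone. The former overlapped without F13a1 (1083 to 1257 and 1126 to 1200). Of its 10 markers, F13a1, Cd163, Lyve1, and Timd4 were lower and Gas6 and Folr2 higher in every spironolactone library, with 3 called lower, 1 called higher, and a median log2 difference of −0.50. The monocyte sums overlapped without Chil3 (1851 to 2148 and 1550 to 2054), with Ly6c2, Plac8, Ms4a4c, and Ace higher in every spironolactone library and a list median of 0.10. Sums for neutrophils (1447 to 3746 and 837 to 1071), dendritic cells (367 to 458 and 304 to 327, overlapping without Irf8), lymphocytes (41.4 to 50.5 and 18.9 to 28.8), endothelial cells (215 to 304 and 153 to 185), and erythroid cells (187 to 306 and 37.3 to 79.7) were higher, and the part of these lists in the result was not tested.

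**Figure D2:**
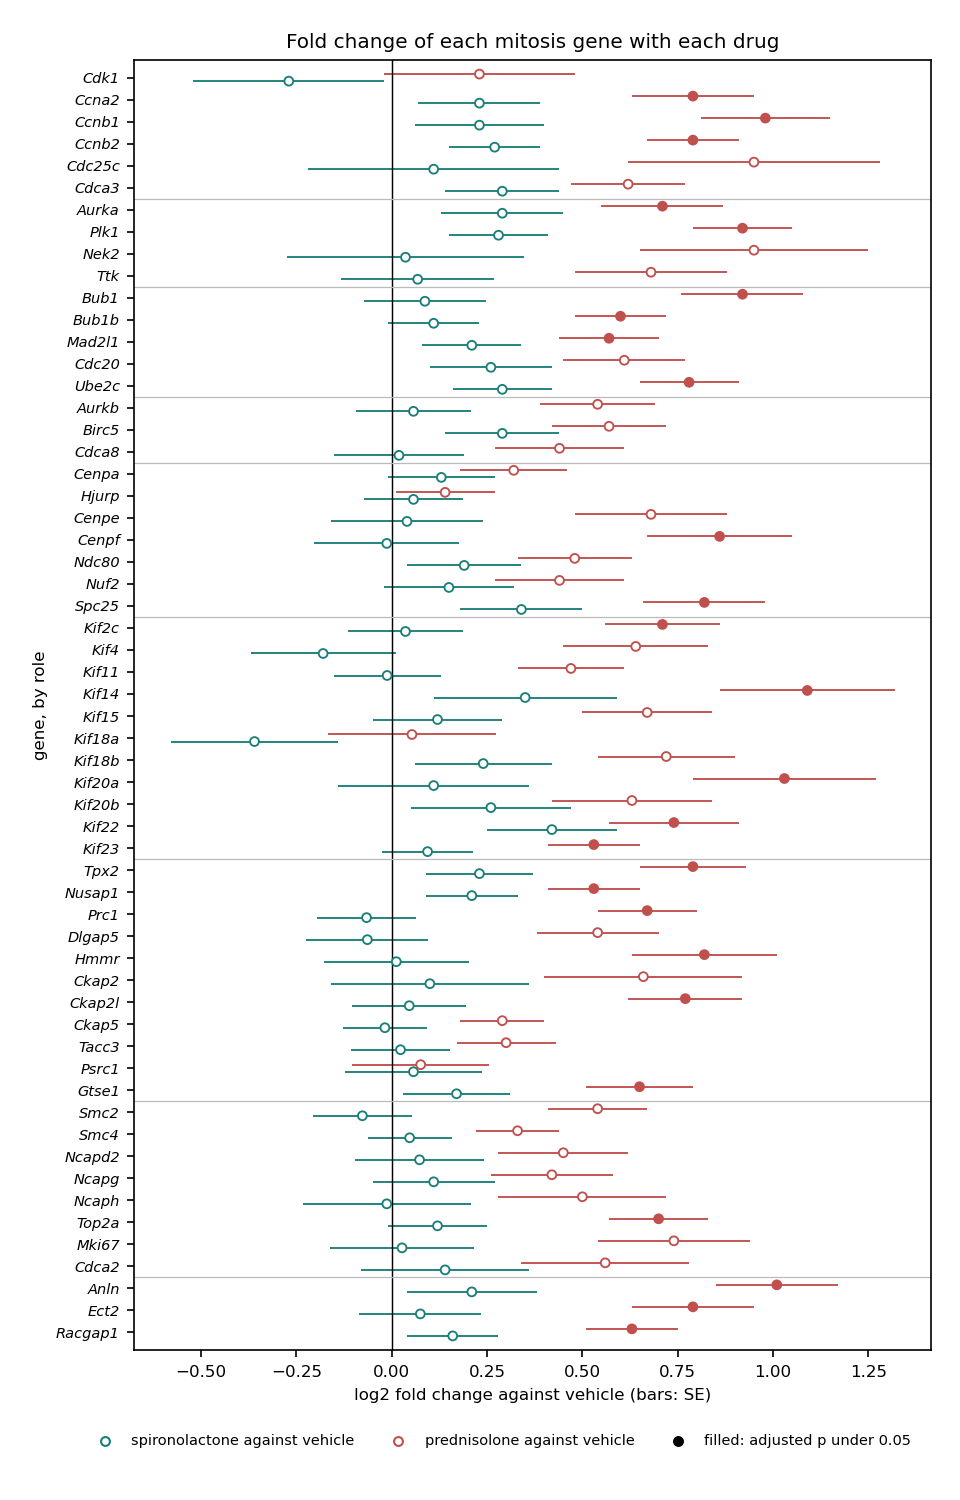
Fitted log2 fold change against vehicle of each of the 58 genes, by role, for spironolactone (teal) and prednisolone (red), with bars for the SE and filled points for an adjusted P under 0.05. The 26 filled points are all of prednisolone, and the spironolactone points lie between −0.36 and 0.42.

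Promoter sequences are shown because genes that rise in G2 and M share a known promoter element, the cell cycle genes homology region (CHR), which binds the DREAM and MuvB complexes, often next to CCAAT boxes that bind NF-Y. RefSeq promoters (GRCm38.p6, 250 bases before to 50 bases from the start) were matched for 50 of the 58 genes; Aurkb, Ccna2, Cdc25c, Cdca2, Dlgap5, Kif20a, Smc4, and Tpx2 were not matched. The CHR was searched as TTTGAA and, as a variant, as TTCGAA, and the CCAAT box by its letters, all on both strands, and no CHR match overlaps a CCAAT match in the stretches below. The following 170-base stretches run 5′ to 3′ on the strand of the gene from 120 bases before the start, in lower case with each CHR and each CCAAT match, on either strand, in capitals. They stand for the cyclins, kinases, checkpoint, kinetochore, kinesins, chromosome structure, and cytokinesis, with Cdk1 as a gene with both motifs that edgeR on all 9 libraries called in none of the 3 comparisons.
Ccnb2: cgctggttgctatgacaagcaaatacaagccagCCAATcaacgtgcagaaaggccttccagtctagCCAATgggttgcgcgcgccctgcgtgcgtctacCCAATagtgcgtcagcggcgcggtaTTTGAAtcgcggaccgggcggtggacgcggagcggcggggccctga
Plk1: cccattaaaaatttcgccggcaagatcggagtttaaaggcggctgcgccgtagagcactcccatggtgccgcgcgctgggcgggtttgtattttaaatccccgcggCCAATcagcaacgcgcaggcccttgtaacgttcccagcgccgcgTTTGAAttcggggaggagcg
Cdc20: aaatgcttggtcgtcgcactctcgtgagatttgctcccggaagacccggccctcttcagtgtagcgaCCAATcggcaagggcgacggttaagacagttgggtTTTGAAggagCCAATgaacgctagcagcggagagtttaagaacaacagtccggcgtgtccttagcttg
Cenpf: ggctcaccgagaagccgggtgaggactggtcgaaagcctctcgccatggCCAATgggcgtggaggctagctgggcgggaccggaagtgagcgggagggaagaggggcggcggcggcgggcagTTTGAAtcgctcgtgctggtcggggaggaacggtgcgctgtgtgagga
Kif23: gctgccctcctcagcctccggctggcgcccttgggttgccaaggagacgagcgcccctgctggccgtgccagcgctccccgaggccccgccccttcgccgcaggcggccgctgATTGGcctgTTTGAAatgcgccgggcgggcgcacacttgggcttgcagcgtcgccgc
Top2a: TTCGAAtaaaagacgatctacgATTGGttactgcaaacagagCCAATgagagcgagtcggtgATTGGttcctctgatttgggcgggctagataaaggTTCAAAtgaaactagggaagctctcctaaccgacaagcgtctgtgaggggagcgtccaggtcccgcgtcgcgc
Racgap1: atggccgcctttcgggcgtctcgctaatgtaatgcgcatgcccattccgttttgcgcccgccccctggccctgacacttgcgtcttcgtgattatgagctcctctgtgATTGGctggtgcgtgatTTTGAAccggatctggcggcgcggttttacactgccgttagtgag
Cdk1: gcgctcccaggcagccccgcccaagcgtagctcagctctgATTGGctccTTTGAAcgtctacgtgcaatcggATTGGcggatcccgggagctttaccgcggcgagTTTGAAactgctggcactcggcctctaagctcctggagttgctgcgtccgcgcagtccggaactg

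Each stretch had 1 exact match on its GRCm39 chromosome, the assembly of the counts. These are chr9:70328787-70328956 (-) for Ccnb2, chr7:121758538-121758707 (+) for Plk1, chr4:118294491-118294660 (-) for Cdc20, chr1:189420234-189420403 (-) for Cenpf, chr9:61854032-61854201 (-) for Kif23, chr11:98914966-98915135 (-) for Top2a, chr15:99549488-99549657 (-) for Racgap1, and chr10:69188693-69188862 (-) for Cdk1, where the sign is the strand of the gene. In Ccnb2, CCAAT stood at −87, −54, and −21 and TTTGAA at 4, counted with the start base as 0. Cenpf and Kif23 both held TTTGAA at 2, Racgap1 at 5, and Plk1 at 30. In Cdk1, the reverse complement of CCAAT stood at −80 and −48, and TTTGAA at −71 and −15.

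CHR letters were present in 39 of the 50 matched members (78%, Wilson 95% interval 64.8% to 87.2%). They were present in 21.7% of 27025 genes with a promoter and in 17.2% of the 11852 genes tested here that had one. A CHR match began within 50 bases of the start in 68% of members and 6.12% of all genes. CCAAT was present in 76% of members and 41.1% of all genes, and both motifs in 68% and 8.61%. A pair of CCAAT letters on the same strand with first bases 30 to 34 apart, a feature looked for after the promoters had been seen, occurred in 20% of members (Aurka, Ccnb1, Ccnb2, Cdca8, Cdk1, Ckap5, Hmmr, Nek2, Spc25, and Ube2c) and in 1.33% of all genes. Among the genes tested here with a promoter, 4.58% had a CHR match within 50 bases of the start and 42.4% had CCAAT. Both motifs were present in 7.11% of those genes and the CCAAT pair in 2.24%. Promoter letters are not part of the count data, but the genes were chosen by role, and known cell cycle genes share these elements, so that the member shares describe the list. A match is a run of letters and not a shown binding site.

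**Figure D3:**
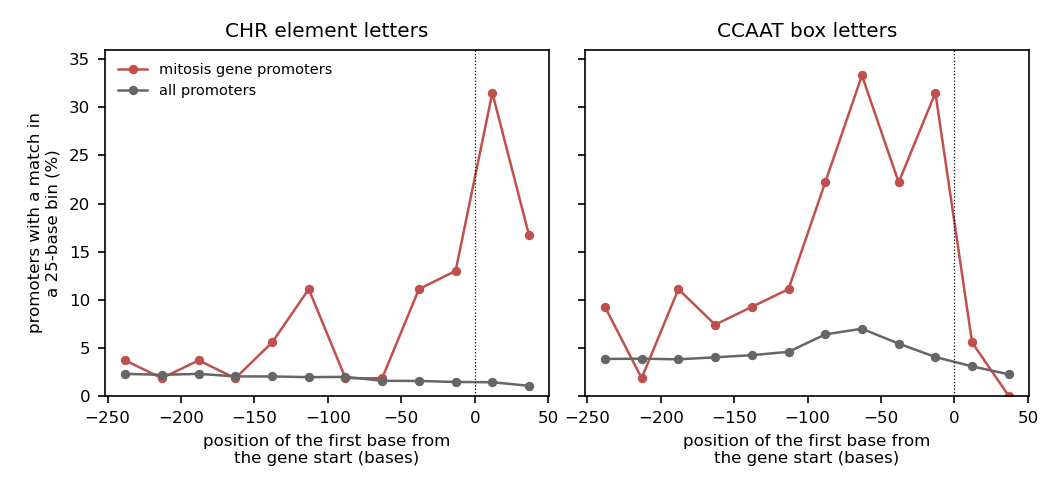
Share of promoters (percent) with a CHR match (left) or a CCAAT match (right) that begins in each 25-base bin, by distance from the gene start in bases, for 54 promoters of the matched members (red) and 32851 promoters of all genes (gray). Member CHR matches peak in the bin from 0 to 24, at 31.5%, and CCAAT matches in the bin from −75 to −51, at 33.3%.

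The 39 members with CHR letters had a median log2 fold change with prednisolone of 0.67, with 19 called, and the 11 without had 0.57, with 4 called. Those without were Birc5, Ccnb1, Cenpe, Gtse1, Kif18a, Mad2l1, Ncaph, Nek2, Nuf2, Nusap1, and Tacc3. With spironolactone the medians were 0.10 and 0.15. Genes with and without the letters thus overlapped in their changes, and no test was made on the chosen genes.

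In the cyclin and CDK1 group, all 6 genes were fitted higher with prednisolone and 3 were called, with a median log2 fold change of 0.79; with spironolactone the median was 0.23 and 0 were called. Library values are given in the order of replicates 1 to 3. Ccnb1, the cyclin that carries CDK1 into mitosis, had 13.3, 8.21, and 10.5 CPM in vehicle, 10.9, 11.7, and 15 with spironolactone, and 19.5, 22.3, and 21.6 with prednisolone. All prednisolone libraries lay well above the other 6, and spironolactone replicate 3 alone exceeded vehicle replicate 1. The log2 fold change of Ccnb1 under prednisolone was 0.98 ± 0.17 (SE; edgeR adjusted P = 0.0122, called in 8 of the 9 fits that left out 1 library) and 0.23 ± 0.17 with spironolactone, and it was −0.75 ± 0.17 between the drugs (adjusted P = 0.0238).

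Ccnb2, the second B-type cyclin, had 17.5, 17.3, and 15.8 CPM in vehicle, 19.3, 19.4, and 22.1 with spironolactone, and 24.3, 30, and 33.2 with prednisolone. The 3 groups did not overlap, with vehicle lowest and prednisolone highest. The log2 fold change of Ccnb2 with prednisolone was 0.79 ± 0.12 (adjusted P = 0.00577). Under spironolactone it was 0.27 ± 0.12, which was not called (adjusted P = 0.53). Ccna2, the cyclin of S phase and early mitosis, had 34.8, 21.4, and 30.6 CPM in vehicle, 38.2, 27.4, and 36.6 with spironolactone, and 47.9, 51.4, and 51.1 with prednisolone, and rose by 0.79 ± 0.16 with prednisolone (adjusted P = 0.0317, called in 4 of the 9 fits that left out 1 library). Prednisolone libraries were again above all others, and vehicle replicate 2 was lowest.

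Cdca3, which recruits targets for cell cycle ubiquitin ligases, had 25.4, 17.9, and 19.6 CPM in vehicle, 23.3, 23, and 30.7 with spironolactone, and 27.4, 35.4, and 34 with prednisolone, so that prednisolone replicate 1 lay below spironolactone replicate 3 (0.62 ± 0.15 with prednisolone, adjusted P = 0.0624). Cdc25c, the phosphatase that activates CDK1, was among the lowest members, at 1.22 TPM (a level scaled by exon length and library size) in vehicle and 2.47 in prednisolone libraries, and missed the threshold with a change of 0.95 ± 0.33 (adjusted P = 0.188). Cdk1, the kinase itself, was outside the rule for genes with library values and was added after its values had been seen. Its level was 18, 24.1, and 31.2 CPM in vehicle, 17.4, 15.3, and 28.3 with spironolactone, and 24.3, 32.1, and 29.5 with prednisolone, with log2 fold changes of 0.23 ± 0.25 and −0.27 ± 0.25 against vehicle, close to their SE. Between the drugs Cdk1 was at −0.49 ± 0.25 (adjusted P = 0.281), and 1 of the 11 alternatives called it lower with spironolactone (adjusted P = 0.00246 to 0.302 over them). Vehicle replicate 3 and spironolactone replicate 3, which hold the most neutrophil marker counts, were the highest of their groups for Cdk1, and this was not tested further. Cdk1 overlaps Ank3 on the opposite strand (GRCm39, chr10:69170976-69236595), and the strand setting of the counting is not given in the sources used here.

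All 4 mitotic kinases were fitted higher with prednisolone (median 0.81) and with spironolactone (median 0.17), and Plk1 and Aurka were called with prednisolone. Plk1, the Polo-like kinase of centrosome maturation and mitotic entry, had 20.8, 14.4, and 17.7 CPM in vehicle, 21.9, 19.6, and 22.8 with spironolactone, and 30.8, 33.1, and 36.1 with prednisolone. The prednisolone libraries lay above all 6 others with no overlap. With a log2 fold change of 0.92 ± 0.13, Plk1 had the smallest adjusted P of the members (0.00376; 0.000359 to 0.0287 in the fits that left out 1 library). Its difference between the drugs was −0.64 ± 0.13 (adjusted P = 0.0148). Aurka, the Aurora kinase of the spindle poles, had 12.4, 8.86, and 10.6 CPM in vehicle, 10.9, 12, and 16.1 with spironolactone, and 17, 18.1, and 17 with prednisolone (0.71 ± 0.16, adjusted P = 0.0403). Spironolactone replicate 3 came close to the prednisolone libraries, and in 3 of the 9 fits that left out 1 library the call held. Nek2, a centrosome kinase, and Ttk, a checkpoint kinase, had log2 fold changes of 0.95 ± 0.30 and 0.68 ± 0.20 and missed the threshold (adjusted P = 0.161 and 0.104).

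Of the 5 checkpoint and anaphase-promoting complex genes, 4 were called with prednisolone (Bub1, Bub1b, Mad2l1, and Ube2c), and Cdc20 was not (0.61 ± 0.16, adjusted P = 0.0729). Bub1, a checkpoint kinase at the kinetochore, had 11, 7.77, and 9.88 CPM in vehicle, 10.7, 8.44, and 11.2 with spironolactone, and 15.5, 19.4, and 19.3 with prednisolone. Vehicle and spironolactone libraries overlapped, and all prednisolone libraries lay above it. It changed by 0.92 ± 0.16 under prednisolone (adjusted P = 0.0122) and was at 0.087 ± 0.16 with spironolactone, and −0.83 ± 0.16 between the drugs (adjusted P = 0.0112). Bub1b, which encodes the checkpoint protein BUBR1, had 25.2, 18.9, and 22.5 CPM in vehicle, 24.5, 21.6, and 25.7 with spironolactone, and 30.4, 34.3, and 36.6 with prednisolone (0.60 ± 0.12, adjusted P = 0.0233).

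Ube2c, the ubiquitin-conjugating enzyme that works with the anaphase-promoting complex, had 27.6, 24.9, and 25.1 CPM in vehicle, 27.4, 29.7, and 37.9 with spironolactone, and 38.5, 47.6, and 46.9 with prednisolone. The prednisolone libraries lay above the others, but spironolactone replicate 3 came close to prednisolone replicate 1. Prednisolone changed Ube2c by 0.78 ± 0.13 (adjusted P = 0.00767), and the fitted value under spironolactone, 0.29 ± 0.13, was not called (adjusted P = 0.497). Ube2c overlaps the muscle troponin gene Tnnc2 on the opposite strand. Mad2l1, the checkpoint protein that sequesters CDC20, changed by 0.57 ± 0.13 (adjusted P = 0.0437, called in 7 of the 11 alternatives and in 2 of the 9 fits that left out 1 library).

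None of the 3 chromosomal passenger complex subunits (Aurkb, Birc5, and Cdca8) was called by edgeR, though all 3 had an unadjusted P under 0.05 with prednisolone and no overlap with vehicle; DESeq2 or another alternative called each in at least 1 setting. Birc5, which encodes survivin, had 19.6, 13.8, and 18.8 CPM in vehicle, 23.1, 18.4, and 22.3 with spironolactone, and 22.6, 30.1, and 25 with prednisolone. Prednisolone replicate 1 lay below spironolactone replicate 1. Cdca8, which encodes borealin, had 18.4, 16.8, and 19.4 CPM in vehicle, 16.7, 14.4, and 24.2 with spironolactone, and 22.7, 29.1, and 22.5 with prednisolone. The changes with prednisolone were 0.57 ± 0.15 for Birc5, 0.44 ± 0.17 for Cdca8, and 0.54 ± 0.15 for the kinase Aurkb (adjusted P = 0.0762, 0.247, and 0.0887).

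The 7 centromere and kinetochore genes had the smallest median change with prednisolone of the 9 groups, 0.48, and 2 of them, Cenpf and Spc25, were called. Spc25, a subunit of the NDC80 complex that grips microtubules, had 6.93, 5.43, and 6.7 CPM in vehicle, 8.92, 6.83, and 8.36 with spironolactone, and 10.9, 11.7, and 11.1 with prednisolone. The prednisolone libraries lay above the others, and spironolactone replicate 2 fell within the vehicle range. Spc25 changed by 0.82 ± 0.16 with prednisolone (adjusted P = 0.0186), its value under spironolactone being 0.34 ± 0.16 (adjusted P = 0.539). Its partners Ndc80 and Nuf2 had values of 0.48 ± 0.15 and 0.44 ± 0.17 with prednisolone, not called (adjusted P = 0.145 and 0.244).

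Cenpe, a kinetochore motor that aligns chromosomes, had 29.5, 15.1, and 19.9 CPM in vehicle, 24.9, 21.2, and 20.3 with spironolactone, and 30.3, 37.7, and 35.7 with prednisolone. Vehicle replicate 1 came close to prednisolone replicate 1, and the change of 0.68 ± 0.20 was not called (adjusted P = 0.125). Cenpf, a large kinetochore protein of G2 and M, changed by 0.86 ± 0.19 (adjusted P = 0.0447, called in 1 of the 9 fits that left out 1 library). Hjurp, the chaperone that loads the centromeric histone CENP-A, had 64.9, 42, and 54.5 CPM in vehicle, 57.4, 52.9, and 57.5 with spironolactone, and 55.1, 61.5, and 61.2 with prednisolone. All 3 groups overlapped, with changes of 0.14 ± 0.13 and 0.057 ± 0.13. Cenpa, which encodes CENP-A, was at 0.32 ± 0.14 with prednisolone (adjusted P = 0.289, not called). Hjurp overlaps Mroh2a and Trpm8 on the opposite strand.

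Against vehicle, kinesins spanned the widest range of changes of the 9 groups with either drug. Of 11, 5 were called with prednisolone (Kif2c, Kif14, Kif20a, Kif22, and Kif23), and the median change was 0.67. Kif14, a motor of the central spindle, had 4.26, 2.9, and 4.43 CPM in vehicle, 3.29, 6.01, and 5.51 with spironolactone, and 8.53, 7.79, and 8.32 with prednisolone. It had the highest fold change of the 58, 1.09 ± 0.23 (adjusted P = 0.032, called in 4 of the 9 fits that left out 1 library), at a low level of 1.61 TPM in vehicle libraries. Kif18a, which dampens chromosome movements at the spindle equator, stood at the other end. It had 4.07, 3.68, and 3.86 CPM in vehicle, 2.37, 3.73, and 2.98 with spironolactone, and 3.49, 4.58, and 3.98 with prednisolone, with changes of 0.053 ± 0.22 and −0.36 ± 0.22, neither called.

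Kif20a, the motor that brings the passenger complex to the midzone, had 5.32, 2.65, and 3.71 CPM in vehicle, 3.7, 3.95, and 4.97 with spironolactone, and 7.08, 9.29, and 7.48 with prednisolone. The prednisolone libraries did not overlap the others. Of the 58, Kif20a had the largest difference between the drugs, −0.92 ± 0.24 (adjusted P = 0.0437). It changed by 1.03 ± 0.24 with prednisolone (adjusted P = 0.0486, called in 2 of the 9 fits that left out 1 library) and was at 0.11 ± 0.25 with spironolactone. Kif22, a chromosome-arm motor, had 13, 9.36, and 10.2 CPM in vehicle, 11.8, 13.5, and 18.3 with spironolactone, and 16.2, 20.1, and 18.1 with prednisolone. Spironolactone replicate 3 lay within the prednisolone range. Kif22 changed by 0.74 ± 0.17 with prednisolone (adjusted P = 0.0456, called in 3 of the 9 fits that left out 1 library). Its value of 0.42 ± 0.17 was the highest of the members under spironolactone and was not called (adjusted P = 0.468).

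Kif11, the bipolar motor that pushes spindle poles apart, had 31.3, 19.8, and 25.8 CPM in vehicle, 25.3, 23.2, and 27.8 with spironolactone, and 33.2, 36.1, and 37 with prednisolone. No prednisolone library overlapped another group, yet the change of 0.47 ± 0.14 was not called (adjusted P = 0.123). Kif23, a motor subunit of centralspindlin, had 27.7, 20.6, and 23.7 CPM in vehicle, 22.8, 25.9, and 28.1 with spironolactone, and 32.8, 34.2, and 36.6 with prednisolone (0.53 ± 0.12, adjusted P = 0.0403, called in 3 of the 9 fits that left out 1 library). The other kinesins that edgeR on all 9 libraries did not call against vehicle, Kif4, Kif15, Kif18b, and Kif20b, had fitted values of 0.63 to 0.72 with prednisolone. Of the 11 alternatives, 3 called Kif4, 3 Kif15, 4 Kif18b, and 2 Kif20b. Kif4, the chromokinesin, was called lower with spironolactone than with prednisolone (−0.82 ± 0.19, edgeR adjusted P = 0.0244).

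Among 11 further spindle microtubule proteins, 6 were called with prednisolone (Tpx2, Nusap1, Prc1, Hmmr, Ckap2l, and Gtse1), with a median of 0.65 over the group and 0.046 with spironolactone. The calls of Nusap1 and Hmmr each held in 2 of the 9 fits that left out 1 library. Tpx2, which activates Aurora A on spindle microtubules, had 34.4, 22.1, and 30.9 CPM in vehicle, 32.9, 31.2, and 38.3 with spironolactone, and 45.2, 51.6, and 53.8 with prednisolone (0.79 ± 0.14, adjusted P = 0.016). Prc1, which bundles antiparallel microtubules of the midzone, had 24.7, 19.2, and 21.3 CPM in vehicle, 18.2, 20.1, and 23.9 with spironolactone, and 31.6, 39.2, and 32.8 with prednisolone. For both genes the prednisolone libraries lay above the 6 others, which overlapped each other. Prc1 changed by 0.67 ± 0.13 with prednisolone (adjusted P = 0.0208) and −0.066 ± 0.13 with spironolactone, and had the smallest adjusted P between the drugs (−0.73 ± 0.13, adjusted P = 0.00782).

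Ckap2l, a spindle pole protein, had 21.7, 17.3, and 14.6 CPM in vehicle, 16.4, 17.5, and 21.6 with spironolactone, and 26.8, 33.2, and 31.6 with prednisolone, without overlap of prednisolone with either group (0.77 ± 0.15, adjusted P = 0.021). Ckap5, a microtubule polymerase that nondividing cells also use, had 76.8, 55.4, and 59.4 CPM in vehicle, 64, 63.7, and 61.5 with spironolactone, and 77.3, 80, and 76.4 with prednisolone. Vehicle replicate 1 reached the prednisolone range, and the change was 0.29 ± 0.11 (adjusted P = 0.232). Psrc1, a microtubule-binding protein of the spindle and a known target of p53, had 8.45, 10.8, and 9.01 CPM in vehicle, 8.48, 10.6, and 10.4 with spironolactone, and 8.56, 8.56, and 12.7 with prednisolone. Only prednisolone replicate 3 was high, and the groups overlapped, with changes of 0.076 ± 0.18 and 0.057 ± 0.18.

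In the group of condensin and chromosome structure, edgeR on all 9 libraries called 1 gene of 8 with prednisolone, Top2a. All 8 had an unadjusted P under 0.05. Of the 11 alternatives, 3 called Mki67, 4 called Smc2, and 1 each called Ncapd2 and Ncaph. Top2a, the topoisomerase that untangles sister chromatids, had 83.7, 54.5, and 77.2 CPM in vehicle, 76.9, 74.4, and 82.9 with spironolactone, and 114, 127, and 109 with prednisolone, above all others without overlap (0.70 ± 0.13, adjusted P = 0.0188). Mki67, which encodes the proliferation marker Ki-67 that coats mitotic chromosomes, had 253, 128, and 171 CPM in vehicle, 208, 175, and 181 with spironolactone, and 289, 317, and 318 with prednisolone. The prednisolone libraries were highest, but the vehicle libraries ranged from 128 to 253 CPM, and the change of 0.74 ± 0.20 missed the threshold (adjusted P = 0.0949; 0.000359 to 0.286 in the fits that left out 1 library).

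Per length, Mki67 was the most abundant member, at 80.1 TPM in vehicle, 80.5 with spironolactone, and 141 with prednisolone. Next in vehicle libraries came the condensin subunit Smc4 at 43.8 TPM, Ube2c at 35.3, Top2a at 35, and Ccnb2 at 33.5, and the median over the members was 11.1 TPM. Smc2, the partner of Smc4 in condensin, had 40.8, 27.5, and 30.8 CPM in vehicle, 32.5, 28, and 33.5 with spironolactone, and 44.6, 51.9, and 48 with prednisolone. Its log2 fold change with prednisolone was 0.54 ± 0.13 (adjusted P = 0.0602), and it was called lower with spironolactone than with prednisolone (−0.62 ± 0.13, adjusted P = 0.0196). Smc4 and the non-SMC subunits Ncapd2, Ncapg, and Ncaph had values of 0.33 to 0.50 with prednisolone. Cdca2, a phosphatase partner on chromosomes, had 0.56 ± 0.22. None of these was called by edgeR on all 9 libraries.

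All 3 cytokinesis genes were called, with prednisolone against vehicle and between the drugs. Anln, the actin-binding scaffold of the cleavage furrow, had 23.1, 14.9, and 16.8 CPM in vehicle, 25.5, 19.9, and 18.1 with spironolactone, and 35.2, 34.1, and 40.8 with prednisolone. Its change of 1.01 ± 0.16 with prednisolone (adjusted P = 0.00955) was 2.01-fold, and it was 0.21 ± 0.17 with spironolactone. Racgap1, the other centralspindlin subunit, had 40.8, 30.6, and 29.9 CPM in vehicle, 34.6, 39.6, and 39.4 with spironolactone, and 47, 55.2, and 54.5 with prednisolone (0.63 ± 0.12, adjusted P = 0.0202). For both genes all prednisolone libraries lay above the 6 others. Ect2, the exchange factor that activates RhoA at the equator, changed by 0.79 ± 0.16 (adjusted P = 0.0263).

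Of the 58 members, 29 were called in neither comparison with prednisolone, and 3 (Kif4, Dlgap5, and Smc2) were called only in the comparison between the drugs. Across the 9 libraries, 34 members had a Pearson r of at least 0.9 with the mean log2 CPM of the others. Psrc1 (r = −0.04), Kif18a (0.36), Cdk1 (0.42), and Hjurp (0.71) were the least alike, and the libraries share their groups, so these values are descriptions. By annotation, 39 members overlap a gene on the opposite strand. The 19 that overlap none had a median change of 0.63 with prednisolone, with 10 called, and −0.48 between the drugs, with 7 called.

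Other cell cycle genes were compared as lists. Over all genes tested, 47.8% were fitted higher and 1.0% were called higher with prednisolone than in vehicle. With spironolactone, 0.0181% of all genes were called higher than in vehicle, and 5.21% were higher at an unadjusted P under 0.05. Of 67 other mitosis genes, 58 were fitted higher with prednisolone (median 0.42) and 2, Iqgap3 and Cdca5, were called higher; with spironolactone the median was 0.091 and 0 were called (4 at an unadjusted P under 0.05). Between the drugs, 1 gene of this list was called lower with spironolactone and 1 higher. Over all 16618 genes tested, 464 were called lower (2.79%) and 395 higher, and nothing is read from the counts of this list. The first was Espl1, the separase that cuts cohesin at anaphase, with 32.3, 24.1, and 23.6 CPM in vehicle, 26.6, 26.1, and 24.9 with spironolactone, and 34.9, 38.6, and 37.4 with prednisolone (−0.51 ± 0.12, adjusted P = 0.0256). The other was Zwint, a kinetochore protein, with 38.4, 41.4, and 39 CPM in vehicle, 42, 40.7, and 40.9 with spironolactone, and 32.8, 32.3, and 33.3 with prednisolone (0.33 ± 0.082, adjusted P = 0.0342). Prednisolone libraries were thus the highest for Espl1 and the lowest for Zwint. Of 63 S phase genes, 56 were fitted higher with prednisolone (median 0.37), and Rrm1, Rrm2, Ccne1, Pole, and Tk1 were called. Between the drugs, 12 S phase genes were called, all lower with spironolactone, from −0.82 for Ccne1 to −0.39 for E2f8. These were Mcm4, Mcm5, Mcm6, Fen1, Rrm1, Hells, Rfc5, Ccne1, Pole, E2f8, Tk1, and Lig1. Of 17 tested G1 cyclins, kinases, and inhibitors, 9 were fitted higher (median 0.027), and Ccne1, cyclin E1, was the 1 gene called. The lists share genes, so this call is the same as the S phase call of Ccne1. Ccne1 and Ccne2 are on both the S phase and the G1 list, and E2f8 is on the S phase list and among the transcription regulators below. Between the drugs the medians were −0.29 for other mitosis genes, −0.31 for S phase genes, and −0.008 for G1 genes.

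**Figure D4:**
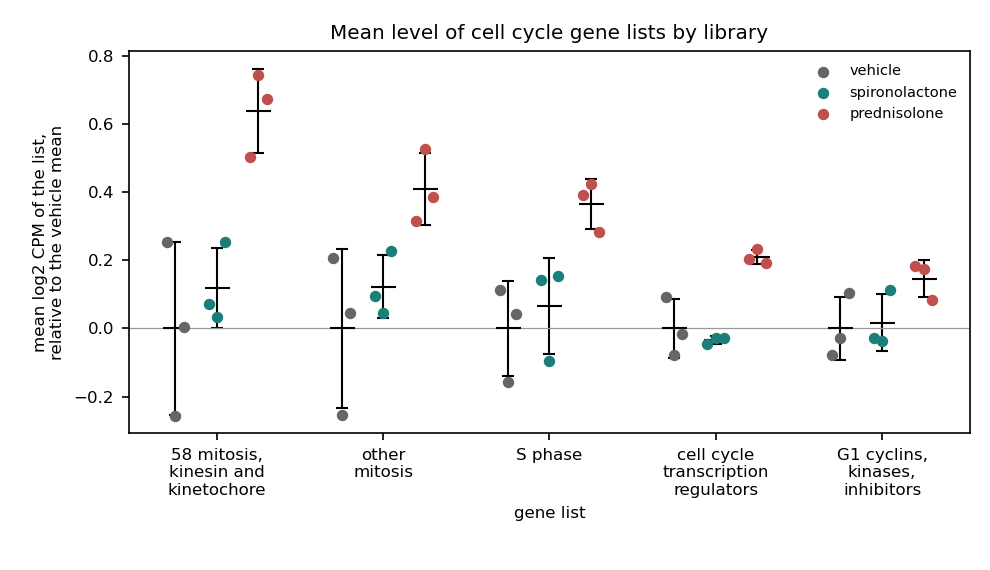
Mean log2 CPM of 5 gene lists in each library, relative to the mean of the vehicle libraries; points are libraries, bars the mean and SD of 3 libraries. The prednisolone libraries lie above all others for the 58 mitosis genes, other mitosis genes, S phase genes, and transcription regulators, and overlap the others for the G1 list.

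Among 25 transcription regulators of the cell cycle, 21 were fitted higher with prednisolone (median 0.17), where 47.8% of all genes were. Of the 25, 1 was called higher, next to 1.0% of all genes. This was Foxm1, the forkhead factor that activates genes of G2 and M, with 33.2, 21.5, and 24.9 CPM in vehicle, 31.9, 27.1, and 30.3 with spironolactone, and 38.1, 47.8, and 42.6 with prednisolone (0.69 ± 0.14, edgeR adjusted P = 0.0283; 0.17 ± 0.14 with spironolactone). The prednisolone libraries lay above the 6 others. Mybl2, the MuvB partner B-MYB, had 8.09, 5.65, and 9.38 CPM in vehicle, 7.02, 6.67, and 8.14 with spironolactone, and 12.3, 12.9, and 11.4 with prednisolone and was called lower with spironolactone than with prednisolone (−0.75 ± 0.18, adjusted P = 0.0306), as were Rbl1, E2f2, and E2f8. CHR letters were present in 61.4% of the promoters of other mitosis genes, 36.8% of those of the regulators, 19.6% of those of S phase genes, and 2 of 14 of those of G1 genes. E2F letters, searched on both strands as TTTCCCGC and also as TTTGGCGC and in the variants TTTCGCGC and lastly TTTGCCGC, were present in 10% of member promoters (Cdk1, Kif15, Kif18a, Ncapd2, and Ncapg), 45.7% of S phase promoters, and 2.6% of all. They were also present in 31.6% of regulator promoters, 10.5% of other mitosis promoters, and 3 of 14 G1 promoters.

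Outside the members, the tested genes with the highest Pearson r to the mean log2 CPM of the 58 over the 9 libraries were Pclaf (0.982), Ext2 (0.977), Foxm1 (0.972), Mical2 (0.971), and Rrm1 (0.97). Pclaf, a PCNA-binding protein of replicating cells, had 15, 11.7, and 14 CPM in vehicle, 14.6, 14.6, and 17.4 with spironolactone, and 19.6, 25.5, and 22.8 with prednisolone. Ext2, a heparan sulfate polymerase, had 51.6, 47.1, and 48.1 CPM in vehicle, 49.4, 49.6, and 54 with spironolactone, and 55.5, 58.7, and 59 with prednisolone. Mical2, an actin-oxidizing enzyme, had 22.2, 14.6, and 18.1 CPM in vehicle, 17.8, 16.7, and 20.6 with spironolactone, and 32.5, 41.5, and 31.3 with prednisolone. Neither Ext2 nor Mical2 was on a cell cycle list, and for all 3 genes the prednisolone libraries lay above the 6 others. The members' mean has this order of libraries too, and the genes were picked for likeness to it, so nothing is read from the order. Rrm1, a subunit of ribonucleotide reductase, had 51.4, 37.4, and 47.7 CPM in vehicle, 43.7, 45.3, and 54.1 with spironolactone, and 67.9, 71.3, and 64.8 with prednisolone. Within groups, that is after the group means were removed, r was 0.926, 0.899, 0.899, 0.909, and 0.871 in the same order.

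Summed markers of satellite cells and fibro-adipogenic cells, which divide in injured muscle, overlapped between the groups. Satellite cell and myoblast markers were 49.3 to 89.1 CPM in vehicle, 60.7 to 95.2 with spironolactone, and 54 to 102 with prednisolone, and fibro-adipogenic markers 1104 to 1415, 1316 to 1777, and 1360 to 1423. Vehicle replicate 1, the highest vehicle library for 48 members, was the lowest of the 9 for both lists. It was also the lowest for macrophage (20781 CPM), monocyte (1940), neutrophil (808), endothelial (115), and skeletal muscle fiber (247) markers. Being lowest was thus not particular to the dividing muscle cells, and the part of any of these cells was not tested. Monocyte markers were 1940 to 3298, 2188 to 2535, and 2549 to 3313 CPM, dendritic cell markers 325 to 364, 367 to 458, and 304 to 327, and skeletal muscle fiber markers 247 to 382, 465 to 794, and 372 to 584. The T cell receptor gene Trac had 0 counts in all 9 libraries. The T cell genes Cd3e, Cd3d, and Cd3g had counts in every library (Cd3g 0.245 to 2.09 CPM), so absence of T cells is not read from Trac. The neutrophil precursor genes Mpo and Elane had no count in prednisolone replicate 1 and prednisolone replicate 3, respectively. The neutrophil-rich vehicle replicate 3 was highest of its group for 9 members and spironolactone replicate 3 for 38, and the part of these cells was not tested beyond the fits without both libraries.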

How the data were processed

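Libraries of sorted quadriceps myeloid cells were analyzed from raw counts per gene, which the authors deposited as 1 table per library. The submitters' processing notes name HISAT2 2.2.1, HTSeq 0.11.3, and mm39 (GRCm39); the annotation release and strand setting are not given in the sources used here. Lines that name no gene held 17.2% to 21.8% of each library and were left out. Tables of the authors' own comparisons (base mean, log2 fold change, SE, statistic, and P values) were not used.

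Genes were kept by filterByExpr (minimum count 10, total 15), scaled by TMM, and tested in 1 quasi-likelihood fit over all 9 libraries with edgeR 4.0.16 (R 4.3.3) and Benjamini-Hochberg adjustment over all 16618 genes at 0.05. The biological coefficient of variation was 0.17, and P values measure the spread between pools of mice. TPM used exon lengths of GENCODE vM39 (40303 of 50559 symbols). Wilson intervals cover counting error only. On simulated counts with 200 changed genes, 124 were recovered and 11 unchanged genes were called. Alternatives were DESeq2 1.42.0, limma-voom (limma 3.58.1), other normalizations and filters, non-robust fitting, 2-group fits, a replicate block, and leaving out each library. Library values were given for Mki67, Top2a, the 2 members of each role with the highest mean CPM, the members at either end of each comparison, the 12 smallest adjusted P values under 0.05, and the 5 other genes most like the members' mean. Library values of Cdk1, Espl1, Zwint, and Mybl2 were given in addition, outside that rule. Called genes of the other lists were named. The members and lists were chosen with earlier results of these data known.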

Additional observations from a re-analysis of the deposited data

How the results depend on the processing

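Members called with prednisolone against vehicle numbered 26 by edgeR on all 9 libraries, where 293 of all genes were called in either direction. They numbered 40 with DESeq2 on 2 groups (704 of all genes) and 45 without a count filter (1019 of all genes). With edgeR on 2 groups they numbered 19 (239 of all genes), and with non-robust fitting also 19 (267 of all genes). In the fits that left out 1 library they numbered 3 to 44. Between spironolactone and prednisolone they numbered 32 with DESeq2 on all 9 libraries, 37 with DESeq2 on 2 groups, 35 with edgeR on 2 groups, 36 without a filter, and 2 to 34 in the fits that left out 1 library. Without both neutrophil-rich libraries, a setting chosen after seeing the data, the counts were 7 and 8. Calls over all genes are not given here for the alternative fits between the drugs, those that left out 1 library, or this setting. Those counts are therefore not read as particular to the members. With spironolactone against vehicle, 0 were called in every setting, and the median ran from −0.013 to 0.24 when 1 library was left out. In these fits the median with prednisolone was 0.52 to 0.79 and that between the drugs −0.59 to −0.44. Correlations between same-numbered libraries were −0.038 to 0.151. The highest were 0.117 and 0.151, between vehicle and spironolactone replicates 1 and 3, and both replicates 3 were neutrophil-rich. Correlations with prednisolone libraries were −0.038 to 0.0199. The numbers were not treated as pairs. With a replicate block 22, 0, and 21 members were called with prednisolone, with spironolactone, and between the drugs. For the block, too, calls over all genes are not given here. With 3 pools per group and adjusted P values near the threshold for many members, a missed call does not show that a gene was unchanged.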
